A study of Mus musculus with 32 samples.

Results

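Histone genes were examined in microglia of the rTg4510 tau mouse and of wild-type littermates. The members were the rows of the deposited log2 signal table that belong to protein-coding genes of the core and linker histones, chosen by name because H2bc11 and H2bc12, both H2B genes, were lower in rTg4510 microglia at every age in earlier results of these data. The rule took 76 of the 18588 genes in the table. They were grouped by name into 63 clustered genes of Hist1 to Hist4, 10 variants and 3 genes known from testis (H1f6, H1f7 and H2bc1). By position H1f6 and H2bc1 also lie in the Hist1 cluster, and the variant gene H2aj lies near H4f16, the Hist4 gene. Another 9 protein-coding histone names of the annotation are not in the table, and 7 histone-named pseudogenes in the table were not counted as members.

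The series compares rTg4510 mice with WT mice at 2, 4, 6 and 8 months of age. The rTg4510 animals carry mutant human tau under a tetracycline-responsive promoter together with a tetracycline transactivator driven by the CaMKIIα promoter, which is active in forebrain neurons and is not a promoter of microglia. The WT littermates (129/FVB F1) carried neither transgene. All animals were female, and each library was made from forebrain cells of several pooled animals, captured with CD11b MicroBeads, so a library stands for a pool and not for one mouse. Of 32 libraries, 4 per group, the 28 that passed the quality control of the study were used, with n = 4 per group at 2 and 6 months and n = 3 at 4 and 8 months. The excluded libraries, replicate 3 of both genotypes at 4 months and replicate 4 of both at 8 months, are given apart.

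Clustered histone genes supply the histones that package newly made DNA. They are transcribed in S phase in most dividing cells, and their mRNAs end in a conserved stem-loop, bound by the stem-loop binding protein SLBP, in place of a poly(A) tail. Variant or replacement histones such as H2A.Z and H3.3 are made throughout the cell cycle from polyadenylated mRNAs and are exchanged into existing chromatin. Microglia of the adult brain divide slowly and proliferate in response to injury and neurodegeneration.

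The stem-loop letters are shown because they mark the clustered genes as a class of mRNA. In GENCODE M21 transcripts the 16-base element was found in 37 of the 63 clustered genes, in H1f6 and in the variant gene H2ax. Many of the remaining transcript models end at the stop codon, so a missing match says only that the letters are not in the model. In the lines below the stem arms are in lower case and the loop is in capitals, as DNA letters. The first form was found in 25 clustered genes, among them H2bc11, H2bc14 and H2ac6. The second was found in 5, among them H2bc12 and H3c3, and the third in 7, all of them H4 genes.
H2bc11 stem-loop: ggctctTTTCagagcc
H2bc12 stem-loop: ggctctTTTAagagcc
H4f16 stem-loop: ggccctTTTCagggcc

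Promoters are shown for the H2B genes on which the comparisons turn, taken from RefSeq on GRCm38.p6. They span from upstream of the transcription start into the first transcribed bases. H2bc11 lies at chr13:22042948-22043247, H2bc12 at chr13:22035571-22035870 and H2bc14 at chr13:21721794-21722093, all on the plus strand and all in the first part of the Hist1 cluster on chromosome 13. Capitals mark 4 searched motifs on either strand, namely the CCAAT box, the TATA box with the letters TATAAA, the octamer bound by POU2F1 with the letters ATTTGCAT, and the GC box with the letters GGGCGG.
H2bc11 promoter: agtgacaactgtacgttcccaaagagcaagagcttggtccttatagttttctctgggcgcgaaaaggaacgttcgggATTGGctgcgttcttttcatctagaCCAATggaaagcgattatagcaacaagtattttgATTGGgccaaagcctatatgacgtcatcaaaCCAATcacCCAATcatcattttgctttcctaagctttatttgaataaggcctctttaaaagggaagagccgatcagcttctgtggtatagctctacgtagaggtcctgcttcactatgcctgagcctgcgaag
H2bc12 promoter: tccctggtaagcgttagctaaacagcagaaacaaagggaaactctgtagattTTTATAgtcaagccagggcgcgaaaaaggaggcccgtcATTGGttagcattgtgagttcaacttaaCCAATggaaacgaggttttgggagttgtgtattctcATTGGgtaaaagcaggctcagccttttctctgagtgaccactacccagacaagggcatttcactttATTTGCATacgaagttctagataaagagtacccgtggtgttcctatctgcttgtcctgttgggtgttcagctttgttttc
H2bc14 promoter: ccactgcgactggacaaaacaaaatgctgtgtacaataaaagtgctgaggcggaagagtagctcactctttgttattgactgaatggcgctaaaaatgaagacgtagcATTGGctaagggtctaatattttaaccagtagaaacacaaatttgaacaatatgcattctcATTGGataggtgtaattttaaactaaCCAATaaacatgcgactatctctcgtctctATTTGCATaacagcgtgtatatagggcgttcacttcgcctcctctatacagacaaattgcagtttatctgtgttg

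Of the 63 clustered genes, 58 had a promoter in the table. A gene was counted for a motif when any of its listed promoters held the letters, so the shares are of genes. A CCAAT box was present in 84.5% of these clustered genes, against 42.3% of 17492 protein-coding genes with promoters of the same length. It was in all genes of the H1, H2A, H2B and H3 groups that could be read and in 3 of the 12 H4 genes. TATAAA was present in 55.2% of the clustered genes against 14.8% of all. The octamer was in 20.7% against 1.9%, and was found in 42.9% of the 14 H2B genes, 35.3% of the 17 H2A genes and no gene of the other groups. A GC box was in 39.7% of the clustered genes against 49.2% of all. A match describes the letters in this window and is not a binding site. H2bc12 and H2bc14 hold CCAAT and octamer letters, H2bc12 also TATA box letters, and H2bc11 CCAAT letters alone. Of the 12 head-to-head pairs of histone genes in the table, 11 join an H2A with an H2B gene, including H2ac11 with H2bc11, separated by 248 bases, and H2ac12 with H2bc12, separated by 177 bases.

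Near-identical coding sequences limit which gene a value can be assigned to. The share of 100-base windows of a gene's transcripts that also occur in another gene had a median of 38.5% over the 63 clustered genes. H2bc23 and H4bc24 (an H2B gene despite its symbol, formerly Hist1h2br) shared all and 99.8% of their windows with each other and cannot be read as separate genes. H2bc11 shared 40.1% and H2bc12 70.8%. In contrast, H2bc14 shared 6.6% and H2ac6 8.1%, and 14 clustered genes shared under 10%. The sources used here do not state to which gene, if any, a read fitting more than one was assigned.

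The values are log2 signals in which every library has the same median of 5.63, and they are not scaled to gene length, so levels are compared between groups of one gene and not between genes. No member was within 3-fold of the lowest signal, the floor, of any of the 28 libraries. Microglial markers were high throughout, the summed log2 signal of 8 genes lying between 14.47 and 15.18. The 2 neuronal markers in the table summed to 3.20 to 6.52. The 4 astrocyte markers summed to 6.51 to 10.10, the 4 oligodendrocyte markers to 6.08 to 9.96, the 3 endothelial markers to 5.23 to 8.45, the 2 erythroid markers to 3.57 to 7.38 and the 3 B cell markers to 4.15 to 6.92. The neutrophil, endothelial and other non-microglial lists moved with genotype. The sum of the 5 neutrophil markers was 8.98 to 9.84 in WT and 7.94 to 8.71 in rTg4510 libraries at 4 months, 8.82 to 10.17 in WT and 7.19 to 7.87 in rTg4510 libraries at 6 months, and 9.75 to 10.18 against 7.52 to 8.86 at 8 months, while at 2 months the groups overlapped (8.91 to 9.68 and 8.49 to 10.28). At 6 months and at 8 months 4 of these 5 genes were called lower, and Ly6g was near the floor in 16 of 28 libraries. The endothelial sum was 6.43 to 7.18 in WT against 5.23 to 6.09 in rTg4510 libraries at 6 months and 7.41 to 8.26 against 6.29 to 7.27 at 8 months, with 2 and 1 of 3 genes called lower, and 1 of 3, Pecam1, was called lower at 4 months. The microglial sum was also apart by genotype from 4 months on, at 14.85 to 15.07 in WT and 14.67 to 14.77 in rTg4510 libraries at 4 months, 14.98 to 15.14 against 14.66 to 14.88 at 6 months and 14.71 to 14.97 against 14.47 to 14.58 at 8 months. Of the B cell list 1 of 3 genes was called lower at 4 months, of the erythroid list 1 of 2 and of the neuronal list 1 of 2 at 6 months, and of the astrocyte list 1 of 4 lower and 1 higher at 6 months and 2 lower and 1 higher at 8 months. In bulk samples fewer cells of a type and less RNA per cell cannot be told apart. The part of these cells in the histone values was not tested.

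A gene is called when its Benjamini-Hochberg adjusted p in a limma fit over all 18588 genes is below 0.05 and its fold change exceeds 1.5. The genotype contrast is the one that led to the choice of the members, so its calls are a description. Clustered histone genes were lower in rTg4510 microglia at all ages. At 2 months 4 members were called lower, all of them H2B genes, where 0.403% of all genes were. They were H2bc11 and H2bc12, which led to the choice, and H2bc23 and H4bc24, which cannot be read as separate genes. H2bc23 also held 40.1% of the windows of H2bc11 and 62.1% of those of H2bc12. The count at this age therefore holds the genes that led to the choice and genes that share sequence with them. The part of shared sequence in it was not tested. At 4 months the number was 30 members against 4.33% of all genes, at 6 months 45 against 8.54% and at 8 months 41 against 5.37%. Over the 63 clustered genes the median log2 fold change was -0.33, -0.73, -0.82 and -0.90 at the successive ages, where the medians over all genes were 0.0143, -0.037, -0.035 and -0.014. At 8 months 21 clustered genes were lower by more than 2-fold in the estimate, and 58 of 63 had a negative estimate, where 51.4% of all genes did.

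**Figure D1:**
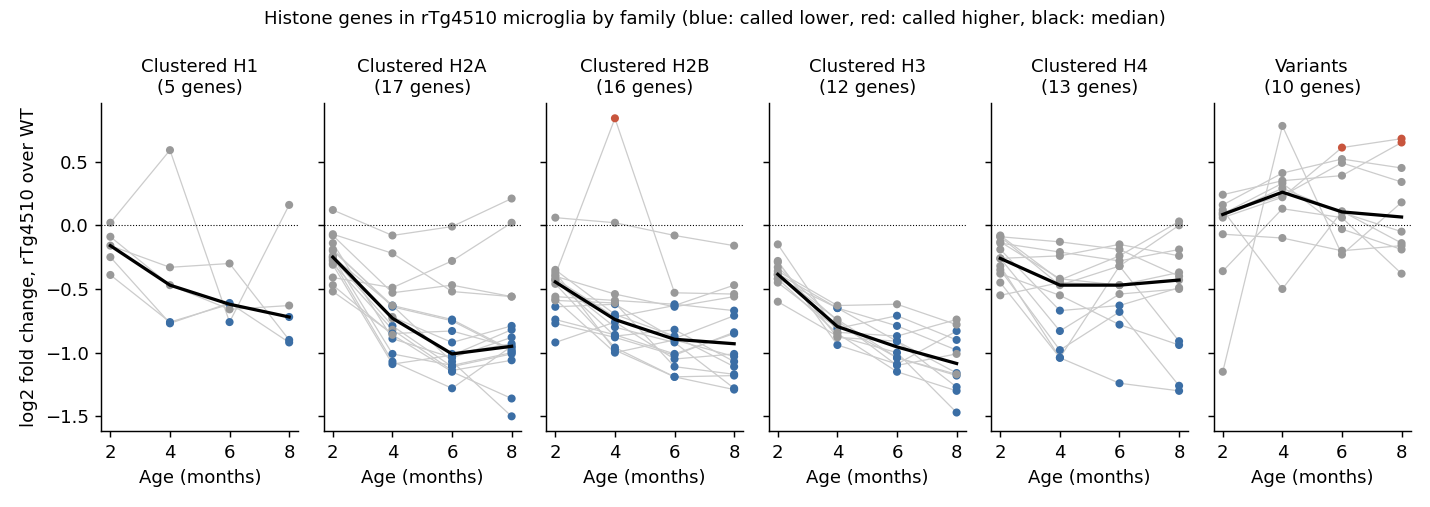
Log2 fold change of rTg4510 over WT (vertical axis) at 2, 4, 6 and 8 months (horizontal axis) for each clustered family and for the 10 variants. Each point is one gene, joined over age by a grey line, with the family median in black. Points in blue were called lower and points in red called higher. Clustered medians lie below zero at each age in all 5 families, and the variant median lies between 0.06 and 0.26.

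Members called higher were few. None was at 2 months (limma, 2 at an unadjusted p under 0.05, 0 with moderated variance), where 1.58% of all genes were. The number was 1 of 76 at 4 months against 9.47% of all genes, 1 at 6 months against 11.3% and 2 at 8 months against 10.5%. Of the clustered genes 15 were called lower at no age, 7 at 1 age, 15 at 2 ages, 22 at 3 ages and 4 (H2bc11, H2bc12, H2bc23 and H4bc24) at all 4 ages. None of the 10 variants was called lower at any age.

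The linker histones of the clusters (H1, which binds DNA between nucleosomes) had medians of -0.16, -0.47, -0.62 and -0.72 over 5 genes. The H2A genes went from -0.25 at 2 months to -1.01 at 6 months and -0.95 at 8 months, with 0, 8, 13 and 13 of 17 called lower. The H2B genes had medians of -0.45, -0.74, -0.89 and -0.93, with 4, 11, 14 and 12 of 16 called lower. The H3 genes had medians of -0.38, -0.79, -0.95 and -1.09, with 0, 4, 11 and 8 of 12 called lower. The H4 genes had medians nearer zero at the later ages (-0.26, -0.47, -0.47 and -0.43), and 0, 5, 4 and 4 of 13 were called lower. In the nucleosome core H2A pairs with H2B and H3 with H4. No test between families was made.

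H2bc11 encodes an H2B protein and was the member with the lowest estimate among clustered genes at 2 months. Its log2 signal was 8.00, 8.16, 8.18 and 8.33 in the WT libraries and 6.95, 7.07, 7.41 and 7.56 in the rTg4510 libraries at that age. All 4 rTg4510 libraries were below all 4 WT libraries. At 4 months the WT libraries held 7.34, 7.64 and 7.81 and the rTg4510 libraries 6.78, 6.82 and 6.92. At 6 months they held 7.25, 7.28, 7.36 and 7.55 against 5.97, 6.27, 6.41 and 6.60. The groups did not overlap at either age. At 8 months WT held 6.76, 7.50 and 7.72 and rTg4510 5.99, 5.99 and 6.99, and one rTg4510 library was above the lowest WT library. The log2 fold changes were -0.92, -0.76, -1.05 and -1.01 (SE 0.22 to 0.25), and no test is given since the gene was chosen on them.

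H2bc12, also an H2B gene, lies near H2bc11 in the cluster. At 2 months its WT libraries held 9.23, 9.32, 9.44 and 9.55 and its rTg4510 libraries 8.33, 8.77, 8.87 and 9.03. At 4 months they held 8.86, 8.91 and 9.01 against 8.21, 8.33 and 8.38, and at 6 months 8.80, 8.83, 8.89 and 8.99 against 7.76, 7.89, 8.11 and 8.19. The groups were apart at these 3 ages. At 8 months WT held 8.24, 8.84 and 9.0 and rTg4510 7.73, 7.77 and 8.45, which overlap by a single library of each group. The log2 fold changes were -0.64, -0.62, -0.89 and -0.71.

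**Figure D2:**
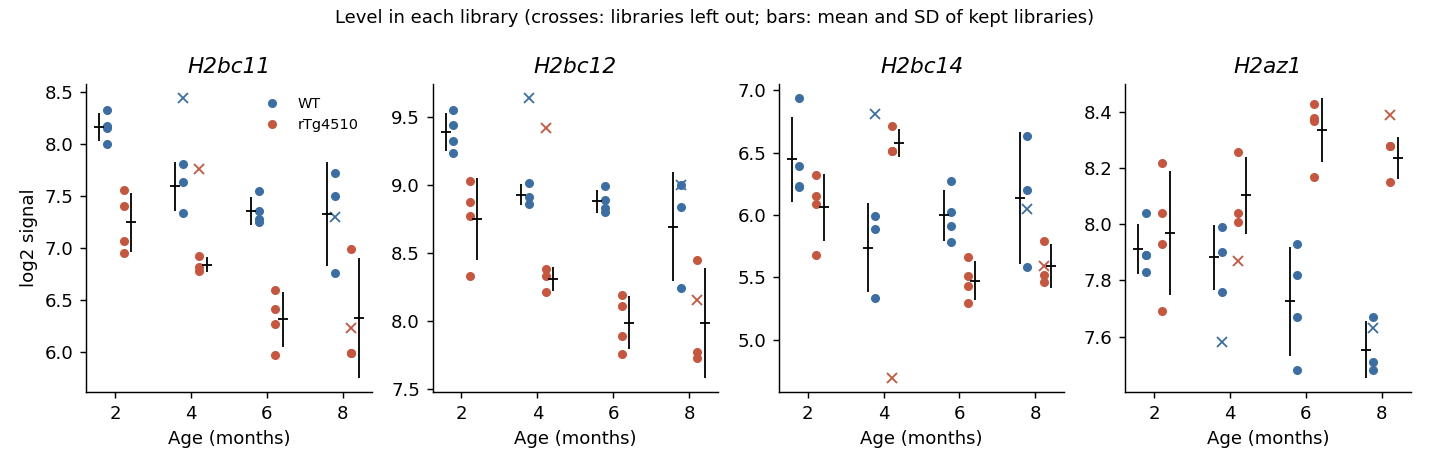
Log2 signal (vertical axis) of H2bc11, H2bc12, H2bc14 and H2az1 in each library against age in months, WT in blue and rTg4510 in red. Circles are kept libraries, crosses the excluded ones, and bars the mean and SD of the kept libraries (n = 3 or 4). H2bc11 and H2bc12 are lower in rTg4510 at each age, H2bc14 is higher at 4 months only in the kept libraries, and H2az1 is higher from 6 months.

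The called members with the lowest estimates differed by age. At 2 months, after H2bc11, H4bc24 had a log2 fold change of -0.77 and H2bc23 of -0.74, which, as above, is one measurement of both genes. Macroh2a2 (-1.15), H1f6 (-0.99) and H2bc1 (-0.78) had lower estimates than these and were not called. At 4 months H2ac23 (-1.09), H2ac4 (-1.07), both H2A genes, and H4f16, the H4 gene of the Hist4 locus (-1.04), were lowest among those called, with H4c18 also at -1.04, and H1f6 had -1.05 without a call. At 6 months they were H2ac4 (-1.28), H4f16 (-1.24) and H2bc18, an H2B gene of the Hist2 cluster (-1.19). H2ac4 held 6.55 to 6.79 in WT and 5.03 to 6.05 in rTg4510 libraries at that age. At 8 months H1f6, known as a testis linker histone, had -1.72, H2ac6 -1.50 and H3c3 -1.47. H2ac6 held 10.27, 10.81 and 10.99 in WT and 9.01, 9.11 and 9.45 in rTg4510 libraries, with no overlap, and H3c3 held 7.67, 8.04 and 8.49 against 5.99, 6.39 and 7.42.

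Not every clustered gene was lower. H2bc21, an H2B gene of the Hist2 cluster singled out after its values were seen, had log2 fold changes of 0.06, 0.02, -0.08 and -0.16. Its 2 months libraries held 8.94 to 9.48 in WT and 9.19 to 9.49 in rTg4510, and at 8 months they held 9.28 to 9.55 and 9.06 to 9.46. These ranges overlap at both ages. The transcript of H2bc21 in the annotation has none of the stem-loop letters and shares none of its windows with another gene. H2ac21 (0.12, -0.08, -0.01 and 0.21) and H4c14 (-0.08, -0.43, -0.24 and 0.03), also singled out after their values were seen, belong to the same cluster and were called at no age.

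The clustered genes with little shared sequence had negative medians as well. Of the 14 that shared under 10% of windows, 0, 5, 7 and 6 were called lower at the successive ages, with medians of -0.18, -0.50, -0.62 and -0.60. Of the 49 others, 4, 25, 38 and 34 were called lower, with medians of -0.37, -0.76, -0.89 and -0.93. H2ac6, H2bc9, H2bc6 and H4f16, singled out after their values were seen, share under 10% and had the lowest estimates of these at 8 months. They were -1.50, -1.11, -1.29 and -1.30. H2ac21, H1f5 and H4c14 also share under 10% and had positive estimates at that age. The part of shared sequence in the histone values was not tested.

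**Figure D3:**
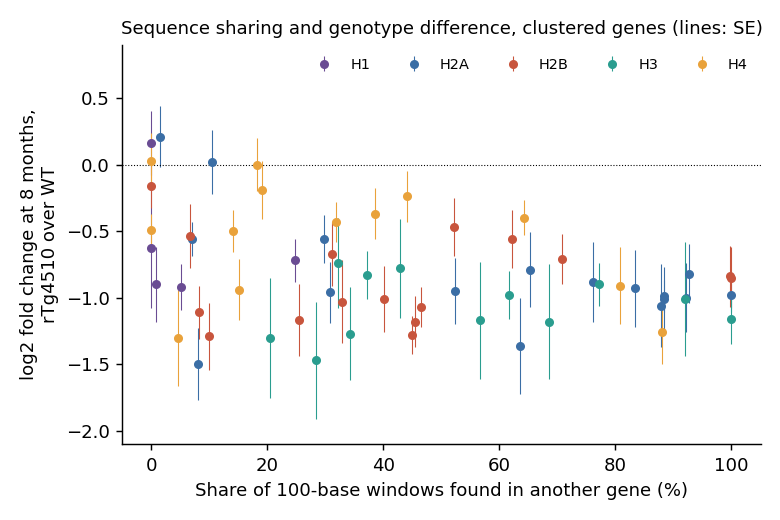
Log2 fold change at 8 months of rTg4510 over WT (vertical axis, lines are SE) against the share of 100-base windows that also occur in another gene (horizontal axis, percent), for the 63 clustered genes coloured by family. Genes below -1 lie at both ends of the axis, and the genes near zero lie mostly below 20%.

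Differences were spread over the gene clusters. In the first part of Hist1 (23 clustered genes) medians were -0.35, -0.74, -0.89 and -0.85, in the second part (28 genes) -0.32, -0.77, -0.87 and -0.93, and in Hist2 on chromosome 3 (10 genes) -0.19, -0.63, -0.72 and -0.94. Of 12 head-to-head pairs, both genes were called lower in 0, 4, 10 and 9 pairs at the successive ages and only one of the genes in 4, 5, 1 and 1. Of all 76 members 4, 30, 45 and 41 were called lower, where 0.403%, 4.33%, 8.54% and 5.37% of all genes were. Whether the genes of a pair went together more than other members was not tested. H2ac6 and H2bc4, separated by 239 bases, had -1.50 and -1.17 at 8 months.

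The count of members called lower at 2 and 8 months turned on single libraries. The 4 calls at 2 months became 1 without rTg4510 replicate 1 or without WT replicate 2 of that age, and 2 without WT replicate 3. The 41 calls at 8 months became 25 without WT replicate 2 of that age. In a fit of only the 6 libraries of 8 months 7 members were called lower.

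Over the 63 clustered genes the mean log2 signal of a library, centred on the 28 libraries, was 0.53 to 0.60 in WT and 0.08 to 0.39 in rTg4510 microglia at 2 months. It was 0.14 to 0.40 against -0.37 to -0.32 at 4 months and 0.07 to 0.31 against -0.77 to -0.19 at 6 months. The groups did not overlap at these ages. At 8 months it was -0.20 to 0.44 against -0.88 to -0.26, which do not overlap either. Between same-numbered libraries of 8 months the difference was -1.04, -0.70 and -0.68. The excluded libraries of 4 months stood apart from the kept ones, at 1.02 in WT and 0.80 in rTg4510, both above every kept library. Those of 8 months, at 0.44 and -0.34, were within the range of, or equal to, the kept libraries of their groups. Within the excluded pair of 4 months 44 of 63 clustered genes were lower in rTg4510, where 51.3% of all genes were. The median difference was -0.38, against -0.05 over all genes. By more than 1.5-fold 22 of the 63 were lower, about the same share as the 33.8% of all genes. Within the excluded pair of 8 months 59 of 63 were lower, where 50.9% of all genes were (median -0.79 against -0.01). By more than 1.5-fold 46 of the 63 were lower in that pair, where 18.3% of all genes were. These pairs had no part in the choice of the members and are given without a test.

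The change of the genotype difference with age did not enter the choice of the members. From 2 to 4 months it moved in the negative direction for 57 of 63 clustered genes, with a median of -0.37 (-0.0285 over all genes), but no member was called lower (limma, 12 members at an unadjusted p under 0.05, 0 calls with moderated variance, 2 with the replicate block and 2 under quantile normalization, 0.893% of all genes called lower). One member was called higher, H2bc14, where 3.77% of all genes were. From 4 to 6 months no member was called (limma, 3 members lower and 2 higher at an unadjusted p under 0.05, 0 with moderated variance), with 0.118% of all genes called lower and 0.0377% higher. From 6 to 8 months none was either (2 lower and 1 higher at an unadjusted p under 0.05, 0 with moderated variance), with 0% of all genes called in either direction.

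H2bc14, an H2B gene with little shared sequence, went against its neighbours at 4 months. Its WT libraries held 5.33, 5.89 and 5.99 at that age and its rTg4510 libraries 6.51, 6.51 and 6.71, all above WT. At 2 months WT held 6.22, 6.23, 6.39 and 6.94 and rTg4510 5.68, 6.09, 6.15 and 6.32, and the ranges overlapped. At 6 months WT held 5.78, 5.91, 6.02 and 6.27 and rTg4510 5.29, 5.43, 5.51 and 5.66, all below WT, and at 8 months 5.58, 6.20 and 6.63 against 5.46, 5.52 and 5.79. The genotype difference was -0.39, 0.84, -0.53 and -0.54 at the successive ages. Its change from 2 to 4 months was 1.22 ± 0.31 (SE; limma adjusted p = 0.0186). The call was lost without WT replicate 4 or without rTg4510 replicate 2 of 4 months. In the excluded pair of 4 months H2bc14 was at 6.81 in WT and 4.69 in rTg4510, a difference of -2.12, and with all 32 libraries the change was 0.49 and was not called.

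The pattern of H2bc14 was set beside genes of DNA replication and proliferation, listed apart from the members. Mki67, the proliferation marker Ki-67, had genotype differences of -0.34, 0.83, -1.13 and -0.62 (SE 0.14 to 0.16), and its change from 2 to 4 months was 1.17 ± 0.21 (SE; limma adjusted p = 0.0014) and from 4 to 6 months -1.96 ± 0.21 (limma adjusted p = 0.000191). Mcm6, a subunit of the replicative helicase, changed by 1.18 ± 0.24 and -1.21 ± 0.24 over the same steps (limma adjusted p = 0.00443 and 0.0483). Top2a, the topoisomerase of dividing cells, changed by 1.57 ± 0.27 and -1.91 ± 0.27 (limma adjusted p = 0.000853 and 0.00325). H1f5, a linker histone gene of the same part of Hist1 singled out after its values were seen, had genotype differences of 0.02, 0.59, -0.76 and 0.16 and shares none of its windows with another gene. These comparisons share their libraries, and the values are side by side only.

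**Figure D4:**
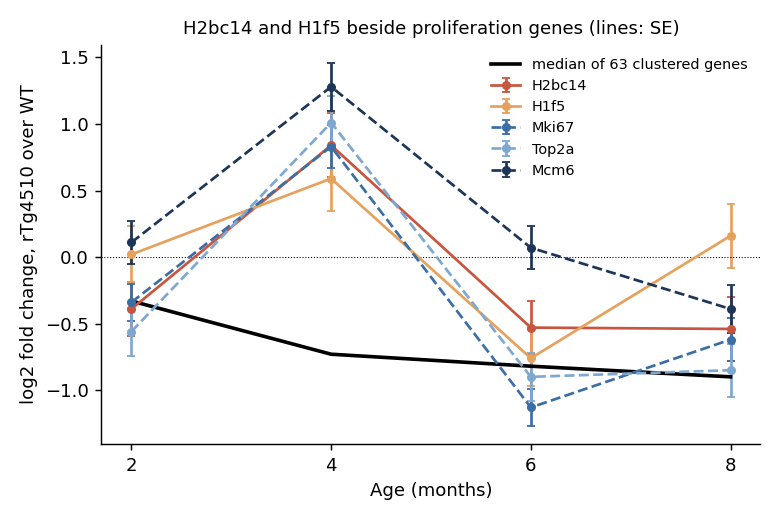
Log2 fold change of rTg4510 over WT (vertical axis, lines are SE) at 2, 4, 6 and 8 months (horizontal axis). H2bc14 and H1f5 (solid) are above zero at 4 months together with Mki67, Top2a and Mcm6 (dashed), while the median of the 63 clustered genes (black) is -0.73 at that age.

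Of 27 genes of S phase, 10 were called higher in rTg4510 microglia at 4 months and none lower, with a median of 0.50, while 30 histone genes were called lower in the same libraries. At that age 9.47% of all genes were called higher and 4.33% lower. Pcna, the sliding clamp of DNA polymerase, was higher by 0.71 ± 0.12 at 4 months and by 0.62 ± 0.10 at 6 months (limma adjusted p = 7.8e-05 and 4.3e-05). E2f1, the transcription factor of S-phase entry, was 1.32 ± 0.31 higher at 4 months (limma adjusted p = 0.00345). At 6 months 4 of the 27 S-phase genes were called lower and 2 higher, where 8.54% and 11.3% of all genes were. At 8 months 3 of the 27 were called lower and 2 higher, where 5.37% and 10.5% of all genes were. Rrm2, a subunit of ribonucleotide reductase, was lower by -0.93 ± 0.31 at 6 months and -1.10 ± 0.36 at 8 months (limma adjusted p = 0.0247 and 0.0279).

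None of 19 genes of histone mRNA transcription and processing was called in either direction at any age (limma; 1, 4, 3 and 1 lower and 1, 2, 2 and 2 higher at an unadjusted p under 0.05), and their medians were -0.03, 0.04, -0.06 and 0.00. Some differed by less than 1.5-fold with an adjusted p below 0.05, and are singled out after their values were seen. Eri1, an exonuclease that acts at the end of histone mRNA, was higher by 0.32, 0.31 and 0.54 at 2, 6 and 8 months (limma adjusted p = 0.0157, 0.0043 and 8.63e-05). Ncbp1, the large subunit of the nuclear cap-binding complex, had -0.34, -0.33 and -0.32 at 4, 6 and 8 months (limma adjusted p = 0.0192, 0.0066 and 0.0273). Srrt had -0.18 at 4 months and Upf1 -0.23 at 6 months (limma adjusted p = 0.0408 and 0.0453). Slbp, the stem-loop binding protein, had 0.07, 0.11, 0.06 and 0.04 with SE of 0.08 to 0.10. Npat, the coactivator of histone gene transcription, had -0.07, -0.02, -0.14 and 0.07 with SE of 0.09 to 0.10. Casp8ap2, a further factor of histone gene expression, had 0.01, -0.30, -0.16 and -0.16 with SE of 0.11 to 0.12 (limma adjusted p = 0.0848 at 4 months). Of 24 histone chaperones, Nap1l1, which carries H2A and H2B, was higher by 0.97 ± 0.07, 1.23 ± 0.06 and 1.07 ± 0.07 at 4, 6 and 8 months (limma adjusted p = 1.51e-09, 2.31e-12 and 3.32e-10). Chaf1a, a subunit of the chaperone that deposits new H3 and H4 at replication, was higher by 1.13 ± 0.32 at 4 months (limma adjusted p = 0.0134). Hjurp, the chaperone of the centromeric H3 variant, was lower by -0.89 ± 0.22 at 6 months (limma adjusted p = 0.00363), and no other chaperone was called in a genotype contrast.

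Of the 10 variants 1 was called higher at 6 months and 2 at 8 months, where 11.3% and 10.5% of all genes were, and their estimates had both signs at every age. H2az1, which encodes an H2A.Z protein found at promoters, was called higher at 6 and 8 months. At 6 months its WT libraries held 7.48, 7.67, 7.82 and 7.93 and its rTg4510 libraries 8.17, 8.37, 8.38 and 8.43, and at 8 months they held 7.48, 7.51 and 7.67 against 8.15, 8.28 and 8.28. The groups were apart at both ages. The log2 fold changes over the ages were 0.06, 0.22, 0.61 and 0.68, and another gene shares 24.8% of its windows. Under quantile normalization the last 2 were 0.50 and 0.58 and were not called, and the call at 6 months was also lost without WT replicate 1 or rTg4510 replicate 2 of that age. H2aj, an H2A variant gene, held 8.86, 9.04 and 9.10 in WT and 9.56, 9.59 and 9.80 in rTg4510 at 8 months, with estimates of 0.24, 0.35, 0.39 and 0.65. It was called at 8 months, not without WT replicate 3 or without rTg4510 replicate 1 of that age, and not under quantile normalization (0.46).

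H3f3a, a gene of the replacement histone H3.3, had 0.10, 0.23, 0.49 and 0.34. Its rTg4510 libraries at 6 months held 8.91 to 9.06 and its WT libraries 8.44 to 8.58. The groups were apart, yet the difference was below 1.5-fold and not called. H3f3b, which encodes the same protein, had 0.12, -0.50, 0.11 and -0.14, and its libraries overlapped at every age. H2ax, the variant phosphorylated at DNA breaks, had 0.09, 0.33, -0.03 and -0.19, and H2az2, the second H2A.Z gene, -0.36, 0.13, 0.06 and -0.38. H1f0, the linker histone of resting cells, had -0.07, -0.10, -0.20 and -0.16. H3f3c, a further gene of the H3.3 group, had 0.16, 0.41, 0.52 and 0.45, and Macroh2a1, of a large H2A variant, 0.08, 0.29, 0.10 and -0.05. Macroh2a2 had -1.15, 0.78, -0.23 and 0.18 with an SD of up to 1.68 within a group. None of these was called in a genotype contrast.

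From 2 to 8 months the genotype difference became more negative for 56 of 63 clustered genes, with a median change of -0.54. Over all genes 50.5% had a negative change, and the median was -0.00479. This comparison was added after the data were seen. Of the members 7 were called lower and 1 higher, where 1.85% and 4.85% of all genes were. H2ac6 changed by -1.25 ± 0.35 (SE; limma adjusted p = 0.0257), H2bc8 by -0.85 ± 0.19 (limma adjusted p = 0.0061), H2bc18 by -0.81 ± 0.25 (limma adjusted p = 0.0456) and H1f7, the testis linker histone, by -0.97 ± 0.27 (limma adjusted p = 0.0244). H2ac18 and H2ac19, which share their sequence, changed by -0.80 ± 0.16 and -0.79 ± 0.17 (limma adjusted p = 0.00309 and 0.00408). H2bc7 changed by -0.64 ± 0.20 (limma adjusted p = 0.0462). H2az1 changed by 0.62 ± 0.16 in the other direction (limma adjusted p = 0.0126). H2bc8 held 11.48 to 12.05 in WT and 10.36 to 10.71 in rTg4510 at 8 months, against 11.84 to 12.09 and 11.20 to 11.70 at 2 months.

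H2bc11 and H2bc12 changed little over the same span, by -0.09 ± 0.33 and -0.08 ± 0.26. Their genotype difference was of like size at 2 and 8 months. Both genes led to the choice by being lower at every age, so its presence at both ages follows from the choice. The 7 calls became 11 with a replicate block, 11 without WT replicate 3 of 8 months, 3 without rTg4510 replicate 4 of 2 months or rTg4510 replicate 1 of 8 months, and 4 without rTg4510 replicate 2 of 2 months, WT replicate 1 of 2 months, or WT replicate 1 or 2 of 8 months. The call of H2az1 was lost without rTg4510 replicate 2 or WT replicate 1 of 2 months, or WT replicate 1 of 8 months. With each of the 28 libraries left out in turn, the call of H2bc18 was lost in 18 fits, that of H2ac6 in 7 and that of H1f7 in 4. The calls of H2bc8, H2ac18 and H2ac19 were lost in none.

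Levels at 8 and 2 months were also compared within each genotype. These comparisons share libraries with the genotype contrasts, so values for H2bc11 and H2bc12 are given without a test. In WT microglia 8 members were called lower at 8 than at 2 months, where 0.737% of all genes were, and none was called higher (limma, 0 at an unadjusted p under 0.05, 0 with moderated variance), where 0.533% were. The 8 were H2ac15, H2ac23, H2bc11, H2bc12, H2bc15, H2bc22, H2bc23 and H4bc24, all in the first part of Hist1, and 6 of them remain when the genes that led to the choice, H2bc11 and H2bc12, are set aside. H2bc23 and H4bc24 are one measurement. H2ac15 fell by 1.08 ± 0.22 on the log2 scale (limma adjusted p = 0.0102), from 7.73, 7.91, 8.03 and 8.15 at 2 months to 6.50, 6.68 and 7.44 at 8 months, without overlap. H4bc24 and H2bc23 fell by 0.93 ± 0.22 and 0.89 ± 0.21 (limma adjusted p = 0.0197 and 0.0224), H2ac23 by 0.86 ± 0.21 (limma adjusted p = 0.0226) and H2bc22 by 0.83 ± 0.22 (limma adjusted p = 0.0388). H2bc11 and H2bc12 had estimates of -0.84 and -0.69. Over the 63 clustered genes the median was -0.40, and 59 estimates were negative, where the median over all genes was -0.0368 and 55.8% were negative. The count became 5, 2, 2 and 4 without WT replicate 1, 2, 3 or 4 of 2 months and 2 without WT replicate 1 or 3 of 8 months, and 0 with all 32 libraries.

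In rTg4510 microglia 51 members were called lower at 8 than at 2 months, where 4.78% of all genes were, and none higher (limma, 3 at an unadjusted p under 0.05, 0 with moderated variance), where 5.72% were. All 8 members called in WT were among the 51. All 12 H3 genes, 15 of 17 H2A genes, 14 of 16 H2B genes, 6 of 13 H4 genes and 2 of 5 H1 genes were called lower. H2ac24, an H2A gene, fell by 1.48 ± 0.25 (limma adjusted p = 0.000138), from 6.64, 6.85, 7.09 and 7.25 to 5.11, 5.18 and 6.13. H2ac6 fell by 1.42 ± 0.25 (limma adjusted p = 0.000249), from 9.89, 10.71, 10.91 and 10.92 to 9.01, 9.11 and 9.45. The ages did not overlap for either gene. H3c7 fell by 1.38 ± 0.33, H2ac23 by 1.37 ± 0.21, H3c4 by 1.34 ± 0.42 and H4c17 by 1.33 ± 0.23 (limma adjusted p = 0.00404, 4.83e-05, 0.0262 and 0.000194). H2bc11 and H2bc12 had estimates of -0.92 and -0.77. None of the 10 variants was called. The count became 30 without rTg4510 replicate 1 of 8 months and 31 without replicate 3.

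**Figure D5:**
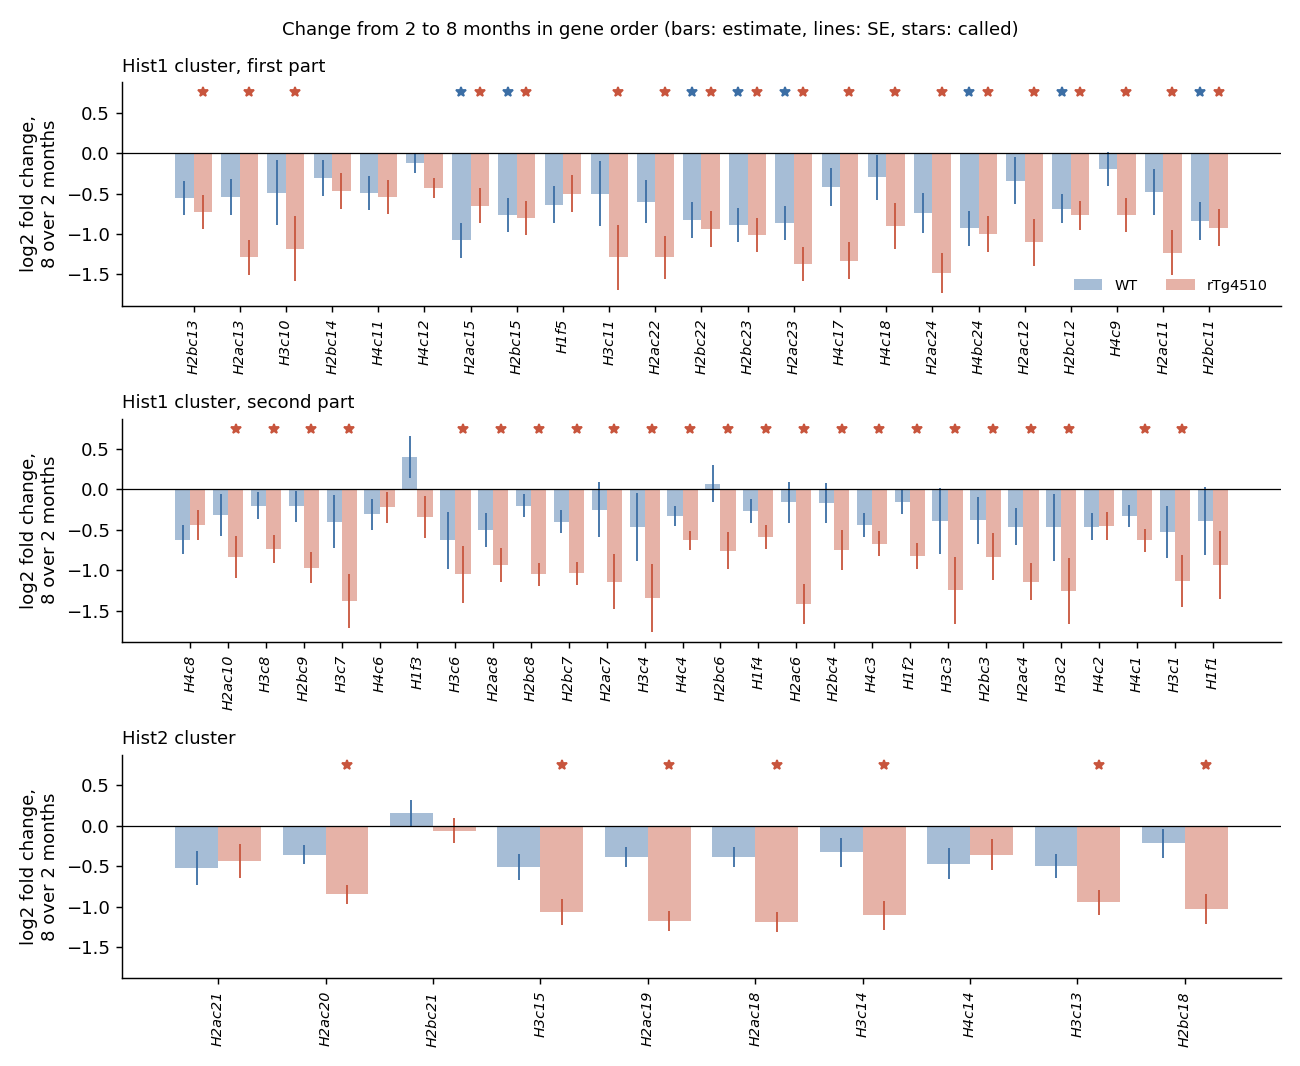
Log2 fold change of 8 over 2 months (vertical axis) for the clustered genes in their order along each cluster (horizontal axis), WT in blue and rTg4510 in red. Bars are the estimates, lines the SE and stars the called genes. WT stars are in the first part of Hist1, and rTg4510 stars run along all 3 panels.

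Other RNAs without a poly(A) tail were looked at after their values were seen. The 16 genes annotated as snRNA had median genotype differences of -0.35, -0.20, -0.42 and -0.36 at 2, 4, 6 and 8 months, and 1, Rn7sk, was called lower, at 4 months. In WT microglia Rpph1, the RNA of ribonuclease P, had -1.18, Rn7sk, the 7SK RNA, -1.13 and Rn7s1 and Rn7s2, genes of the signal recognition particle RNA, -0.92 and -0.85 from 2 to 8 months, all called lower. Rmrp (-0.84) and Terc (-0.67), looked at in the same way, were not called. In rTg4510 microglia Rpph1 had -0.36, Rn7sk -0.73, Rn7s1 -0.51 and Rn7s2 -0.45 over the same span. Rmrp had -0.27 and Terc -0.74 there, and none of these RNAs was called in rTg4510. In the genotype contrast Rpph1 had -0.53, -0.31, 0.04 and 0.29 at the successive ages, Rn7s1 -0.31, -0.14, -0.03 and 0.11, and Rn7s2 -0.30, -0.08, 0.00 and 0.11, with no call. Rn7sk had -0.55, -1.13, -0.43 and -0.15 and was called lower at 4 months. Rmrp and Terc were called at no age. The part of these RNAs, or of how RNA without a poly(A) tail was captured, in the histone values was not tested.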

How the data were processed

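RNA of CD11b-captured microglia was converted to cDNA with the Ovation RNA-Seq System V2 and sequenced in paired ends by the authors. The authors summed exon reads, left out exons with few reads, summarized exons to genes with a robust linear model, and deposited median-normalized log2 signals per Entrez gene. The deposited log2 values hold no counts, so depth per library is unknown and no counting interval is given. GRCm38 is named in the submitters' processing notes, and the aligner and annotation are not given in the sources used here. Entrez IDs were matched to RefSeq symbols on GRCm38.p6.

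Members and gene lists were chosen with earlier results of these data known. Group means of the 28 libraries were fitted with limma 3.58.1 in R 4.3.3 without variance moderation (20 residual degrees of freedom), following the 2-factor model of the study, with Benjamini-Hochberg adjustment per contrast over 18588 genes and calls at an adjusted p below 0.05 and a fold above 1.5. The fit was tested on simulated data. Tables were made with Python 3.11.15 and pandas 2.3.3.

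Named genes were H2bc11 and H2bc12, the 3 called members of largest decrease and of largest increase at each age, up to 6 called members per age or interaction contrast and direction, the variants, and from the lists Slbp, Npat, Casp8ap2, Mki67, Pcna and up to 2 called genes each way; others are marked as chosen after their values were seen. Replicates are separate pools. Same-numbered libraries of both genotypes deviated together at 6 months (correlations of deviations over genes 0.131 to 0.153) and 8 months (0.15 to 0.291). Libraries of different numbers were below these, at -0.127 to 0.0913 and -0.259 to -0.0281. At 2 months all same-numbered correlations were positive (0.0649 to 0.167) but overlapped those of different numbers (-0.194 to 0.0816). At 4 months they had both signs (-0.0999 to 0.124). By this check the numbers pair the libraries at 6 and 8 months. The fit reported takes no pairs, and the replicate block (10 residual degrees of freedom) pairs same-numbered libraries at all 4 ages. Sequence sharing and the stem-loop were read from GENCODE M21 transcripts, and promoters from RefSeq. Alternatives were moderated variance, all 32 libraries, quantile normalization, a signal filter at the 25th percentile, a replicate block, no fold threshold, fits within an age and each library left out in turn.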

Additional observations from a re-analysis of the deposited data

Results flagged for a closer look

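In rTg4510 microglia of 2 months a single library was far below the other 3 for H1f6 (4.92, the next at 5.98), for H2bc18 (8.79, the next at 9.23) and for H2bc23 (8.75, the next at 9.22). Groups of 4 were examined for 33 genes in 132 combinations of gene and group, and chance alone marks about 1 in 20 groups.

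The genotype difference changed with age beyond the threshold for some members (limma, adjusted over all genes). H2bc14 rose by 1.22 from 2 to 4 months. From 2 to 8 months H2ac6 changed by -1.25, H1f7 by -0.97, H2bc8 by -0.85, H2bc18 by -0.81, H2ac18 by -0.80, H2ac19 by -0.79, H2bc7 by -0.64 and H2az1 by 0.62.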

How the results depend on the processing

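Moderated variance and the 25th percentile filter left every count of called members within 1.5 times. With all 32 libraries the members called lower were 0 at 2 months, 0 in WT from 2 to 8 months and 2 in the change of the genotype difference from 2 to 8 months, and those called higher were 1 at 8 months and 0 in the change from 2 to 4 months. Under quantile normalization 0 were called higher at 6 months, 0 at 8 months and 0 in the change from 2 to 8 months, and 4 were called lower in WT with age and 2 in the change from 2 to 4 months. The replicate block, which pairs libraries of one number, gave 2 members called lower in the change from 2 to 4 months and 11 in that from 2 to 8 months; in the genotype contrasts it gave 6, 45, 46 and 45 lower and moved no count by over 1.5 times. Without the fold threshold 5, 4 and 4 were called higher at 4, 6 and 8 months and 1 in rTg4510 with age. Fits within an age, with fewer samples, gave 2 lower at 2 months, 7 lower at 8 months and 0 higher at 4 months.

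With each library left out in turn the members called lower were between 1 and 4 at 2 months, between 23 and 36 at 4 months, between 34 and 46 at 6 months and between 25 and 50 at 8 months, and those called higher were between 0 and 2 at 4 months, between 0 and 1 at 6 months and between 1 and 2 at 8 months. For the changes of the genotype difference they were 0 to 2 higher from 2 to 4 months, 0 to 1 lower from 4 to 6 months, and 3 to 11 lower and 0 to 1 higher from 2 to 8 months. With age they were 2 to 9 lower in WT and 30 to 55 in rTg4510. No named call turned its direction under any of these, and 1329 values of named genes stayed on their side of the threshold while 144 lost their call, 107 of these with a library left out. Depth is unknown, and 3 or 4 pools per group set the precision.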
